A study of Mus musculus with 3 samples.

Results

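The genes described here are the cytosolic and mitochondrial heat shock proteins and their cochaperones, 10 genes in all: *Hspa1a*, *Hspa1b*, *Hspb1*, *Dnajb1*, *Hsph1*, *Hsp90aa1*, *Hsp90ab1*, *Hspa8*, *Bag3* and *Hspd1*. Their probe sets were those to which the platform annotation gives exactly 1 gene symbol from this list, which made 21 of the 45101 probe sets on the array and 9 of the 18194 genes named there. *Hsp90ab1* had no probe set named here and was not analysed. The genes were selected on values of this same comparison, the differences in signal between the cardio-renal and uninephrectomy arrays, so every difference between the groups below is a description and carries no test. RNA came from the remaining kidney of male C57BL/6J mice labelled as 16 weeks old, and each sample was read on 1 single-colour Affymetrix array. The 2 cardio-renal syndrome samples came from mice in which the abdominal aorta was constricted below the point where the renal arteries branch off, with removal of 1 kidney 2 weeks later. The 1 uninephrectomy alone sample came from a mouse or mice that lost 1 kidney without banding, and in both groups the kidney was taken 6 weeks after the nephrectomy. Nothing in the labels tells whether an array was made from a single mouse, so the spread between the cardio-renal arrays may be technical or biological. The single uninephrectomy array has no spread of its own, and both cardio-renal arrays were set against it.

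Heat shock proteins are molecular chaperones that bind unfolded or partly folded proteins. Hsp70 proteins hold and release clients in a cycle driven by ATP, J-domain proteins such as DNAJB1 hand clients to them and stimulate the ATPase, and HSPH1 and BAG3 act as nucleotide exchange factors. Hsp90 proteins mature kinases and steroid receptors, HSPB1 is a small ATP-independent holdase, and HSPD1 forms the folding chamber of the mitochondrial matrix. After heat, ischaemia or other protein damage, the transcription factor HSF1 forms trimers and binds heat shock elements, inverted repeats of nGAAn, in the promoters of the inducible genes. *Hspa8* and *Hsp90ab1* are abundant in unstressed cells. In the kidney, inducible Hsp70 and HSPB1 are best known from ischaemia and from the osmotic stress of the medulla. Here *Hspa1a*, *Hspa1b*, *Hspb1*, *Dnajb1*, *Hsph1*, *Hsp90aa1* and *Bag3* are called inducible, and *Hspa8*, *Hsp90ab1* and *Hspd1* constitutive, although *Hspd1* can also be induced.

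Promoter sequence was available for 7 of the 9 measured genes, from RefSeq on GRCm38.p6, as 250 bases before to 50 after each annotated start. The upstream bases of *Hspa1a* and *Hspa1b* are shown first because they show how alike the copies are. These genes also lay furthest below the uninephrectomy array in the mean of both arrays, by the probe set with the highest mean. *Hspb1* was close behind, at -0.72 against -0.74 for *Hspa1b*. The stretches of *Hspb1*, *Hsph1* and *Hspd1* that follow hold the other upstream matches to the heat shock element. All are written in the direction of transcription, 5′ to 3′, and the capitals mark the exact matches to the paired repeats GAANNTTC (head to head) or TTCNNGAA (tail to tail) and to triple repeats, in which a GAANNTTC pair is followed after any 2 bases by another GAA, or the reverse complement of this.
Hspa1a, chr17:34972157-34972406, minus strand: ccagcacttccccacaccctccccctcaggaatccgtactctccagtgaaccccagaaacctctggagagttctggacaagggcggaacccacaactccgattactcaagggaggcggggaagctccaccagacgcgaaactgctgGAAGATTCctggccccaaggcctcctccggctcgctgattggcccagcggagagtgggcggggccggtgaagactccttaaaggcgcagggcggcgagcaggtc
Hspa1b, chr17:34959239-34959488, minus strand: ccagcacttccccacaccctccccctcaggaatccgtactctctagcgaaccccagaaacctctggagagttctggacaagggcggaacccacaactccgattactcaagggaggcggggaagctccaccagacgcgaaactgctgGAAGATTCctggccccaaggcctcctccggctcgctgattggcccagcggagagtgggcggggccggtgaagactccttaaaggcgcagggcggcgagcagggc
Hspb1, chr5:135887779-135887859, plus strand: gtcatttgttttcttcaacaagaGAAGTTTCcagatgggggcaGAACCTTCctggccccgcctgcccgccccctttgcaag
Hsph1, chr5:149636337-149636396, minus strand: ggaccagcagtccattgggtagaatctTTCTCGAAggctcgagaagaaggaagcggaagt
Hspd1, chr1:55088022-55088102, minus strand: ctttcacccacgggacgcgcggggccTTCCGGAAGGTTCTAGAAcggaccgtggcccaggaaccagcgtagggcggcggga
The 300-base promoters of *Hspa1a* and *Hspa1b* were identical at 296 positions, 98.7%. Counted from the annotated start and with the base of *Hspa1a* first, the substitutions before the start were C207T, T204C and T2G, and the fourth, C26T, lay after it. The single head-to-head pair, 104 bases before the start, was the same in both. *Hspb1* held 2 head-to-head pairs, beginning 117 and 97 bases before its start. One of the starts of *Hspd1* held 2 overlapping triple repeats, beginning at 144 and 139 bases upstream. *Hsph1* had a tail-to-tail pair 33 bases upstream of one annotated start, 54 bases upstream of the other, and a triple repeat just downstream of both. *Bag3* held 1 head-to-head pair, 43 bases after its start. Neither annotated start of *Dnajb1* had an exact match in this window, which says only that these letters are not in it.

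Over all 32851 promoters of the same length, either pair was found in 15.1% and a triple repeat on either strand in 0.603%. Counted by gene, with any of its starts, a pair was found in 6 of the 7 members with a promoter and a triple repeat in 2 of them. By the same count, 14.1% of the 9075 kept genes with a promoter had a pair and 0.606% a triple repeat. Of 77 other kept chaperone genes with a promoter, 15 had a pair and 3 a triple repeat. The motifs overlap, since each triple repeat contains both kinds of pair. The TATA box TATAAA, searched on both strands and present in 13.6% of all promoters, had no match in any of the members' promoters. The GC box GGGCGG was present in every one of them, against 35.7% of all promoters on either strand. The CCAAT box was in at least 1 promoter of *Hspa1a*, *Hspa1b*, *Dnajb1*, *Hsph1* and *Hspd1*. Over all promoters, counted singly and not by gene, it was in 37.4%.

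**Figure D1:**
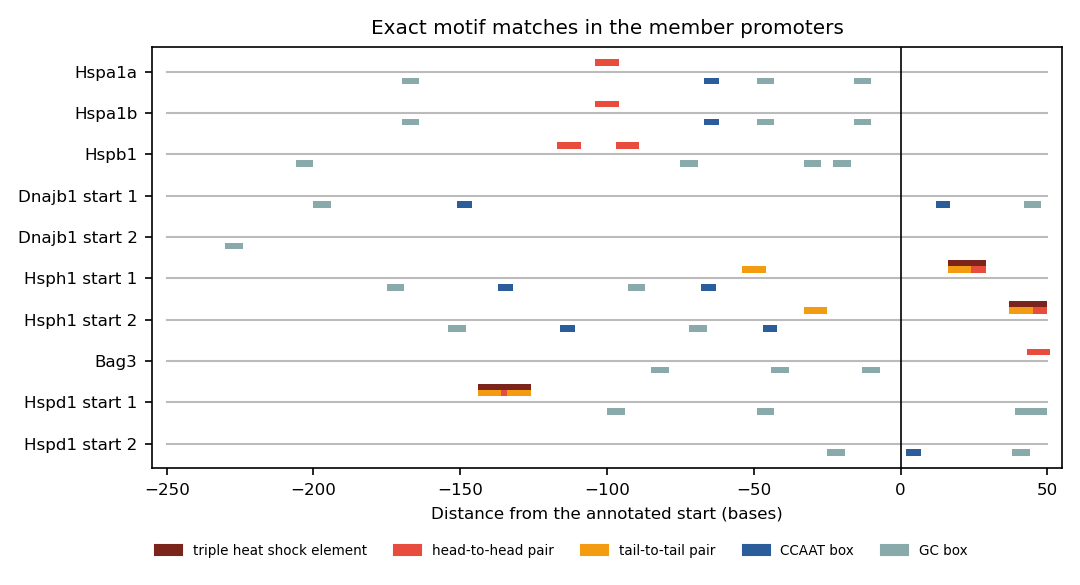
Positions of exact motif matches in the members' promoters, in bases from the annotated start (vertical line at 0); each row is 1 promoter, and genes with more than 1 annotated start have a row for each. Matches to the heat shock element are drawn above the line and the CCAAT and GC boxes below it; the pair of *Hspa1a* and that of *Hspa1b* lie at the same place, 104 bases upstream, and the *Dnajb1* rows have none.

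Values are MAS5 signals, the linear intensity of each probe set, and differences are in log2(signal + 28.8), cardio-renal minus uninephrectomy. Signals of different probe sets cannot be ranked against each other, because probe sets differ in how well they hybridise. All 3 arrays had the same trimmed mean signal, and their medians lay between 100.1 and 105.9. Of 12 kidney segment markers, 11 were measured and all passed the filter on low values, a mean log2 value of 7.02; their medians were -0.022 in array 1 and 0.0053 in array 2, with *Aqp2*, the collecting duct water channel, at -0.18 ± 0.03 and *Atp6v1b1*, a proton pump subunit of intercalated cells, at 0.18 ± 0.0042 (SD, n = 2). limma called 0 of 11145 genes (0%) after Benjamini-Hochberg adjustment, and 279 had an unadjusted p under 0.05. Over all genes kept, the median difference was 0.0085 in array 1 and -0.0028 in array 2, and the SD of the differences over genes was 0.321 and 0.244. In whole-kidney RNA, fewer cells of a type and less RNA per cell cannot be told apart.

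Of the members' 21 probe sets, 19 passed the filter. In both cardio-renal arrays, 16 of these 19 had a lower signal than in the uninephrectomy array, against 30.5% of the 19496 probe sets kept in all, and 1 was higher in both, against 31.1%. The inducible genes accounted for 14 of the 16: every one of their 14 kept probe sets was lower in both arrays. Of the 5 constitutive probe sets, 2 were lower in both, 1 was higher in both and 2 had opposite signs. At least 1.5-fold lower in both arrays were 5 of the 19, against 0.359% of all probe sets kept, and at least 2-fold lower in both were 0, against 0.0462%. Taking 1 probe set per gene, the one with the highest mean, the median difference of the 7 inducible genes was -0.52 in array 1 and -0.39 in array 2. The 2 constitutive genes had medians of -0.27 and 0.048.

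**Figure D2:**
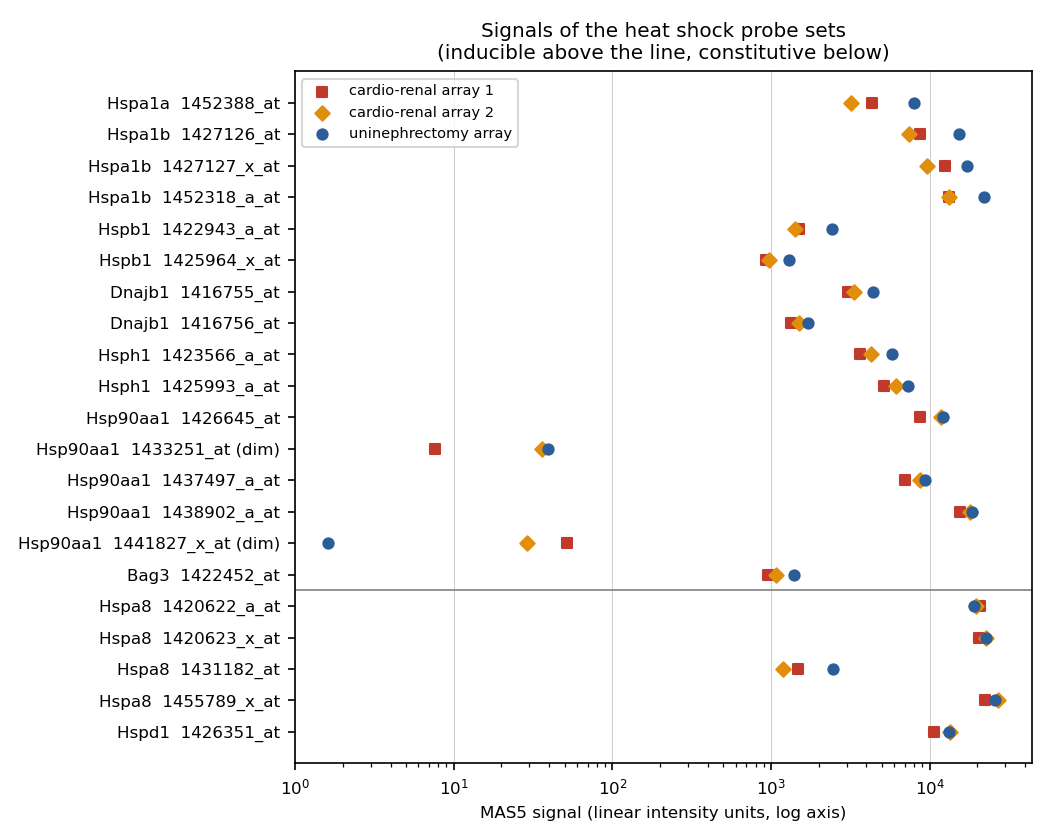
MAS5 signal (log axis) of all 21 probe sets of the members in the 3 arrays, with inducible genes above the grey line and constitutive genes below it. The uninephrectomy point lies to the right of both cardio-renal points for each inducible probe set except the dim one of *Hsp90aa1* at its lowest signal, 1.62, and for *Hspa8* it does so clearly only in 1431182_at.

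*Hspa1a* and *Hspa1b* encode the stress-inducible cytosolic Hsp70 and lie close together on chromosome 17. The single probe set of *Hspa1a*, 1452388_at, had signals of 4348 and 3201 in the cardio-renal arrays, against 7929 in the uninephrectomy array. The cardio-renal signals were thus 54.8% and 40.4% of the uninephrectomy signal, and the mean difference was -1.08 ± 0.31 (SD, n = 2). Among all genes kept, ordered from the lowest difference, it ranked 90 in array 1 and 7 in array 2. The 3 probe sets of *Hspa1b* were all lower in both cardio-renal arrays, by different amounts. Probe set 1427126_at had signals of 8682 and 7407 in the cardio-renal arrays and 15264 in the uninephrectomy array, a difference of -0.93 ± 0.16 (SD, n = 2). Probe set 1452318_a_at had 13219 and 13189 in the cardio-renal arrays and 22098 in the uninephrectomy array, -0.74 ± 0.0023 (SD, n = 2). The cardio-renal arrays gave nearly the same signal there, whereas in 1427127_x_at they lay apart, at 12443 and 9590.04 against 17088 in the uninephrectomy array, -0.64 ± 0.26 (SD, n = 2). *Hspa1a* and *Hspa1b* are near-identical, as the promoters above show for their upstream sequence, and these probe sets are not certain to tell the transcripts apart. Their agreement is therefore not that of 4 independent measurements.

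*Hspb1*, the small heat shock protein that holds unfolded clients and binds actin filaments, was lower in both of its probe sets. Probe set 1422943_a_at had signals of 1496 and 1408 in the cardio-renal arrays, against 2415 in the uninephrectomy array, a difference of -0.72 ± 0.06 (SD, n = 2). Probe set 1425964_x_at had 927.8 and 972.9 in the cardio-renal arrays and 1297 in the uninephrectomy array, a smaller difference of -0.44 ± 0.05 (SD, n = 2). The cardio-renal arrays lay close together in both probe sets and below the uninephrectomy array in both.

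The cochaperones *Dnajb1*, *Bag3* and *Hsph1* were also lower in both arrays, and in the mean of both arrays each of their probe sets differed by less than those of *Hspa1a* and *Hspa1b*. *Dnajb1*, the J-domain partner that delivers clients to Hsp70, had signals of 3063 and 3345 in probe set 1416755_at of the cardio-renal arrays, against 4378 in the uninephrectomy array, a difference of -0.45 ± 0.09 (SD, n = 2). Its other probe set, 1416756_at, had 1336 and 1496 in the cardio-renal arrays and 1717 in the uninephrectomy array, -0.28 ± 0.11. *Bag3*, which links Hsp70 to selective autophagy, had 963.1 and 1082 in the cardio-renal arrays and 1397 in the uninephrectomy array, -0.44 ± 0.12 (SD, n = 2). For all 3 of these probe sets the order of the arrays was the same, with array 1 lowest and the uninephrectomy array highest.

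*Hsph1*, the Hsp110 exchange factor, followed that order as well. Probe set 1423566_a_at had signals of 3650.3 and 4263 in the cardio-renal arrays and 5762 in the uninephrectomy array, a difference of -0.54 ± 0.16 (SD, n = 2). Probe set 1425993_a_at had 5160.02 and 6133 in the cardio-renal arrays and 7307 in the uninephrectomy array, -0.38 ± 0.18.

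*Hsp90aa1*, the inducible cytosolic Hsp90, differed from the uninephrectomy array mainly in array 1 with the signals as deposited. After quantile normalization the difference of the gene was -0.08 ± 0.02 (SD, n = 2), so the gap between the cardio-renal arrays depended on the normalization. The 3 kept probe sets of *Hsp90aa1*, 1426645_at, 1437497_a_at and 1438902_a_at, were all lower in both arrays. In 1426645_at the signals were 8733 and 11846 in the cardio-renal arrays and 12071 in the uninephrectomy array, 72.4% and 98.1% of it. In 1437497_a_at they were 6998 and 8743 in the cardio-renal arrays and 9326 in the uninephrectomy array. In 1438902_a_at the signals were 15434 and 18071 in the cardio-renal arrays and 18364 in the uninephrectomy array, a difference of -0.14 ± 0.16 (SD, n = 2). The mean differences of 1426645_at and 1437497_a_at were -0.25 ± 0.31 and -0.25 ± 0.23, so only in the second of these, and there barely, was the mean larger than the SD. *Hsp90aa1* thus had the smallest difference of the inducible genes, close to the -0.14 of *Hspd1*. The 2 probe sets that did not pass the filter also belong to it: 1433251_at had 7.66 and 36.2 in the cardio-renal arrays and 39.1 in the uninephrectomy array, and 1441827_x_at had 51.6 and 29.1 against 1.62. These signals lie below the array medians, and their opposite directions are given only for completeness.

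Among the constitutive genes, *Hspa8* encodes Hsc70, the Hsp70 of unstressed cells, which also uncoats clathrin vesicles. Probe set 1455789_x_at had signals of 22187 and 27168 in the cardio-renal arrays and 25859 in the uninephrectomy array, a difference of -0.07 ± 0.21 (SD, n = 2). Probe set 1420623_x_at had 20513 and 22601 in the cardio-renal arrays and 22739.8 in the uninephrectomy array, -0.08 ± 0.10. Probe set 1420622_a_at had 20777 and 19731 in the cardio-renal arrays and 19049 in the uninephrectomy array, 0.09 ± 0.05. In the first of these the uninephrectomy signal lay between the cardio-renal signals. These are among the brightest probe sets on the arrays, whose highest signals were 29675, 40588 and 39782 in cardio-renal arrays 1 and 2 and the uninephrectomy array, and whether the scale is compressed at that end was not tested.

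The fourth *Hspa8* probe set, 1431182_at, behaved differently. Its signals were 1484 and 1189 in the cardio-renal arrays, against 2476 in the uninephrectomy array, a difference of -0.88 ± 0.22 (SD, n = 2). That difference resembled those of *Hspa1a* and *Hspa1b* in size and in the order of the arrays, array 2 being the lowest. The annotation ties this probe set to the sequence AK004608 and the others to BC006722 and BB453676, and which *Hspa8* transcripts each one reads was not tested. *Hspd1*, the mitochondrial chaperonin Hsp60, had 10702 and 13534 in the cardio-renal arrays and 13308 in the uninephrectomy array, -0.14 ± 0.24 (SD, n = 2), again with the uninephrectomy signal between the others.

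**Figure D3:**
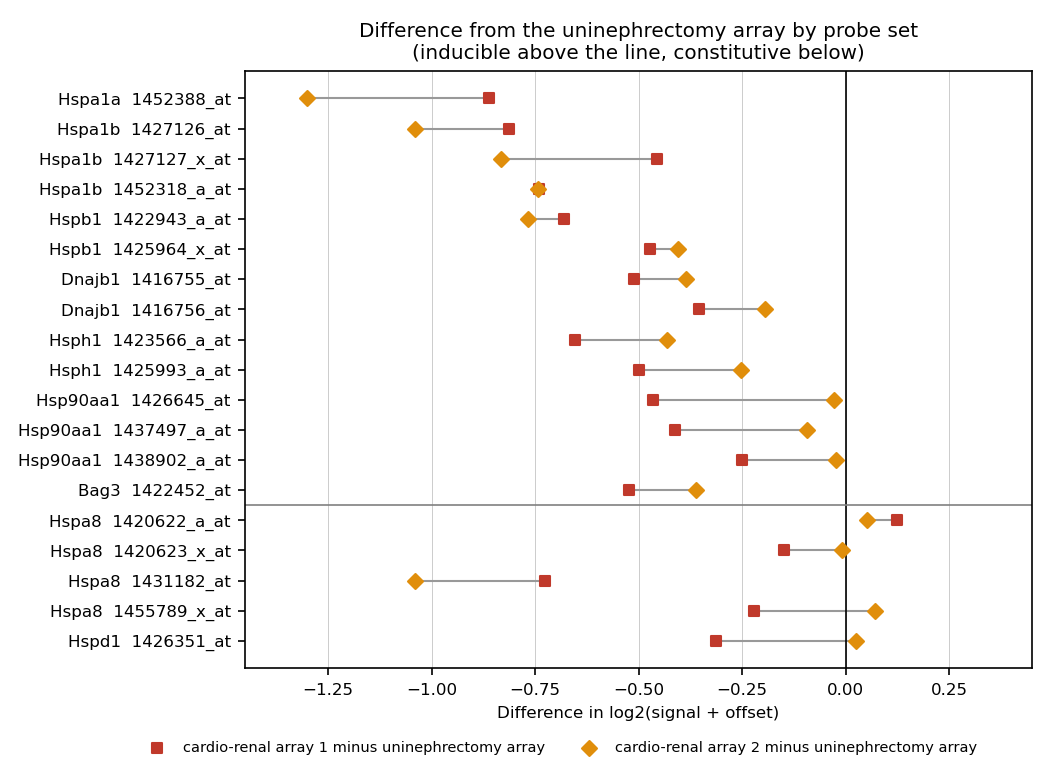
Difference of each cardio-renal array from the uninephrectomy array in log2(signal + offset) for the 19 probe sets kept; a grey line joins the 2 arrays, and both share the uninephrectomy array. All inducible probe sets lie left of 0 in both arrays; of the constitutive ones, only *Hspa8* 1431182_at lies below -0.50.

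The median of the inducible genes lay 0.34 lower than that of the constitutive genes, on the log2 scale and averaged over both arrays (-0.45 against -0.11). That separation depends on the probe set that stands for *Hspa8*: without probe sets designed to allow shared sequence, 1431182_at represents the gene, the constitutive median becomes -0.51 and the inducible minus constitutive difference turns to 0.066. In array 1 alone the difference between the classes was -0.26, and in array 2 alone it was -0.43. After quantile normalization it was -0.39 ± 0.0023 over both arrays (SD, n = 2), with a constitutive median of -0.05. With the signals as deposited the SD was 0.13, so this gap between the arrays also depended on the normalization.

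The cardio-renal arrays also differed from each other, and not in the same direction for every gene. Of the 19 kept probe sets, 12 were lower in array 1 than in array 2, against 45.8% of all probe sets kept. Those lower in array 1 were all of *Dnajb1*, *Hsph1*, *Bag3*, *Hsp90aa1* and *Hspd1*, with 1 of *Hspb1* and 2 of *Hspa8*. The 7 that were higher in array 1 were all 4 of *Hspa1a* and *Hspa1b*, 1 of *Hspb1* and 2 of *Hspa8*. The largest separations in either direction were similar in size, 0.44 higher in array 1 for *Hspa1a* and -0.44 for *Hsp90aa1* 1426645_at, and the SD of the same difference over all genes kept was 0.318. After quantile normalization the SD between the arrays fell from 0.16 to 0.02 for *Hsp90aa1*, from 0.21 to 0.05 for *Hspa8* and from 0.24 to 0.15 for *Hspd1*. It fell less for *Hspb1*, *Dnajb1* and *Hsph1* and rose for *Hspa1a*, *Hspa1b* and *Bag3*.

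The rest of the chaperone network lay around 0. The lists of other Hsp70 and Hsp110 genes, small heat shock proteins, J-domain proteins, Hsp90 cochaperones, Hsp70 adaptors, mitochondrial chaperones, TRiC and prefoldin subunits and heat shock factors held 113 genes, of which 108 were measured and 96 kept. Lower in both arrays were 28 of these, higher in both were 27, and 41 had opposite signs, against 29.8% lower and 30.6% higher over all genes kept. Their medians were -0.0054 in array 1 and 0.010 in array 2. At least 1.5-fold lower in both arrays were 0 of the 96, against 0.35% of all genes kept; of the 9 member genes 3 were, *Hspa1a*, *Hspa1b* and *Hspb1*. At least 2-fold lower in both were 6 genes in all, 0.0538%, and 0 of the members.

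Among other Hsp70 and Hsp110 genes, 1 of 7 kept was lower in both arrays and 3 were higher. *Hspa4l*, an Hsp110, stood at -0.29 ± 0.03, but its 5 probe sets ranged from -0.29 to 0.13. *Hspa12a* stood at 0.20 ± 0.09, with 0.09 in its other kept probe set. *Hspa14* stood at 0.09 ± 0.01, but its other kept probe set stood at 1.34 in array 1 and 0.12 in array 2. Of the 4 small heat shock proteins kept, 2 were lower in both and 1 was higher. *Cryab*, the alpha B crystallin that is abundant in muscle, lens and renal medulla, had signals of 3573 and 3235 in the cardio-renal arrays and 4235 in the uninephrectomy array, -0.31 ± 0.10, but its other kept probe set stood at 0.00063 in array 1 and -0.25 in array 2. *Hspb2* stood at -0.32 ± 0.16 and *Hspb6* at 0.37 ± 0.08.

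Of the 34 J-domain genes kept other than *Dnajb1*, 12 were lower and 7 higher in both arrays, with medians of -0.031 and -0.0058. *Dnaja4*, an HSF1-responsive member, was lower in all 3 of its probe sets, with signals of 665.7 and 901 in the cardio-renal arrays and 1114 in the uninephrectomy array in the brightest, -0.51 ± 0.30. *Dnajc17* stood higher, with 1504 and 1438 in the cardio-renal arrays and 797.7 in the uninephrectomy array, 0.86 ± 0.04, and its other probe sets did not pass the filter. *Dnajc1* stood at -0.25 ± 0.06 in its brightest probe set, and its 4 other kept probe sets ranged from -0.31 to 0.02. Of 13 Hsp90 cochaperones, 2 were lower and 3 higher in both arrays. The activator of the Hsp90 ATPase *Ahsa1* stood at -0.11 ± 0.06 in its brightest probe set, and at -0.72 in array 1 and -0.87 in array 2 in its other, dimmer one. Its relative *Ahsa2* stood at -0.38 ± 0.20, and the glucocorticoid-induced immunophilin *Fkbp5* at 0.24 ± 0.25, with -0.11 in array 1 and 0.65 in array 2 in its other kept probe set.

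Of 8 adaptors of Hsp70, 3 were lower and 5 higher in both arrays, with *Bag6* at -0.24 ± 0.03, *Hspbp1* at 0.21 ± 0.04 and *Bag2* at 0.15 ± 0.01. Mitochondrial chaperones and proteases had 3 of 12 lower and 3 higher. There *Trap1*, the mitochondrial Hsp90, stood at 0.18 ± 0.13, *Afg3l2* at 0.19 ± 0.05 and *Clpx* at -0.22 ± 0.24. The other kept probe sets of *Afg3l2* and *Clpx* had the opposite sign, at -0.08 and 0.29. Of the 8 TRiC subunits, which fold actin and tubulin, 2 were lower and 1 higher in both arrays, with *Cct7* at -0.05 ± 0.02, *Cct8* at 0.03 ± 0.01 and *Cct2* at -0.02 ± 0.01. Another kept probe set of *Cct7* stood at 0.08, and those of *Cct2* at -0.05 and 0.29. Among 6 prefoldin genes 2 were lower and 3 higher, with *Pfdn2* at 0.14 ± 0.03, *Pfdn6* at -0.09 ± 0.0017 and *Pfdn4* at -0.11 ± 0.13. Endoplasmic reticulum chaperones, which answer to the unfolded protein response and not to HSF1, had 4 of 17 lower and 6 higher in both arrays, with *Sdf2l1* at 0.23 ± 0.01, *Sil1* at -0.25 ± 0.13 and *Hsp90b1* at 0.18 ± 0.09. The other kept probe set of *Hsp90b1* stood at -0.02.

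**Figure D4:**
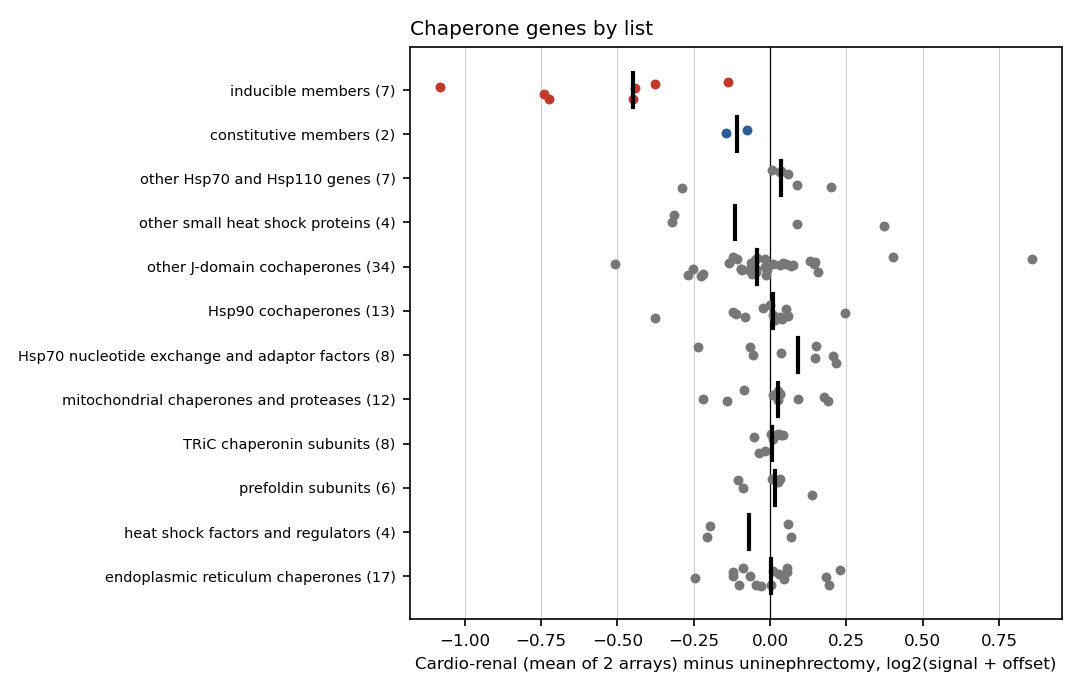
Each point is 1 kept gene, at its difference between the mean of the 2 cardio-renal arrays and the uninephrectomy array in log2(signal + offset); the black bar is the median of the list and the number of genes stands in brackets. The bar of the inducible members lies at -0.45 and that of the constitutive members at -0.11; the bars of the other lists lie between -0.11 and 0.093.

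*Hsf1* had no probe set named here and was not analysed. *Hsf2*, whose product can join HSF1 in trimers, had signals of 188.9 and 180.8 in the cardio-renal arrays and 217.5 in the uninephrectomy array, -0.21 ± 0.04 (SD, n = 2). *Hsf2bp*, which binds HSF2, stood at -0.50 in array 1 and 0.11 in array 2, *Hsbp1*, an inhibitor of HSF1 trimers, at 0.06 ± 0.05 and *Hsbp1l1* at 0.07 ± 0.12. *Hsf4* and *Hsf5* did not pass the filter, with signals of 15.8 and 63 for *Hsf4* in the cardio-renal arrays and 70.7 in the uninephrectomy array, and of 40 and 40.3 against 32.5 for *Hsf5*.

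Genes with heat shock elements were also summarised over the whole array. Leaving the members out, 53 kept genes had a triple repeat in a promoter window, of which 16 (30.2%) had lower values in both cardio-renal arrays and 20 (37.7%) had higher values, against 30.0% lower and 30.6% higher among all 9068 kept genes with a promoter. Their medians were 0.045 in array 1 and 0.011 in array 2. For the 1272 genes with either pair the medians were 0.015 and -0.0070. At least 1.5-fold lower in both arrays were 8 of them (0.629%), against 22 of the 7796 genes without a pair (0.282%) and 30 of the 9068 (0.331%). Of the 53 genes with a triple repeat, 0 were. These counts are small, and whether the shares differ was not tested. The other chaperone genes with a triple repeat were *Chordc1*, *Dnajb6* and *Hspe1*, named after their values were seen. *Hspe1* encodes the cochaperonin of HSPD1 and is transcribed from the same promoter region in the opposite direction. It stood at -0.27 in array 1 and -0.0073 in array 2, beside -0.31 and 0.024 for *Hspd1*. *Chordc1* had -0.21 and 0.044, and *Dnajb6* had -0.24 and -0.0024, so these 3 genes and *Hspd1* were lower in array 1 and near 0 in array 2, whereas *Hsph1*, the other member with a triple repeat, stood at -0.50 and -0.25. That pattern was not confined to these genes. Among endoplasmic reticulum chaperones, *Hspa5* had -0.23 and -0.014 and *P4hb* had -0.24 and -0.0049, though *Hsp90b1* had 0.25 and 0.12.

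Other transcripts differed between the same arrays. Of 26 immediate early genes, 22 were kept, of which both cardio-renal signals were lower for 10 and higher for 6. The medians of the 22 were 0.13 in array 1 and -0.29 in array 2, and the summed signal of all 26 was 22400 and 18604 in the cardio-renal arrays and 25504 in the uninephrectomy array. *Ccn1* (-1.69 ± 0.14), *Fos* (-1.30 ± 0.38), *Nr4a1* (-0.92 ± 0.43) and *Zfp36* (-0.42 ± 0.06) were the genes of that list furthest from 0 in both arrays with like sign, and all 4 were lower. The other probe sets of *Ccn1* ranged from -1.32 to -1.17. Of 24 heart muscle markers measured, both cardio-renal signals were higher for 18 and lower for 1, with summed signals of 8586 and 7468 in the cardio-renal arrays and 5873 in the uninephrectomy array. Only 10 of the 24 passed the filter. Of these, 7 were higher in both and 0 lower, against 30.6% and 29.8% of all genes kept. On the uninephrectomy array 9 of the 24 lay below the array's 25th percentile, against 2 and 1 on the cardio-renal arrays; *Myh6* had signals of 349.4 and 188.2 in the cardio-renal arrays and only 9.93, below that percentile, in the uninephrectomy array. *Actc1* stood at 2.29 ± 0.30, *Myl2* at 1.93 ± 0.25 and *Pln* at 0.79 ± 0.0017, with 1.23 and 0.37 in the other probe sets of *Pln*. Of 6 adipocyte markers measured, 5 were higher in both, and of the 4 that passed the filter 3 were. The summed signals of all 6 were 12763 and 10678 in the cardio-renal arrays and 7706 in the uninephrectomy array. *Car3* alone had 8260 and 6995 in the cardio-renal arrays and 3702 in the uninephrectomy array. *Fabp4* had 4226 and 3424 against 3829, so its 2 differences had opposite signs. *Cidec* and *Lep* did not pass the filter. *Car3*, *Retn* and *Adipoq* stood at 1.03 ± 0.17, 0.48 ± 0.21 and 0.29 ± 0.20.

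Of 10 macrophage markers, 6 were lower and 4 higher in both, with summed signals of 6369 and 6940 in the cardio-renal arrays and 7531 in the uninephrectomy array. Of the 9 that passed the filter, 6 were lower and 3 higher, against 29.8% and 30.6% of all genes kept. *Lyz2*, *C1qb*, *C1qc* and *Cd14* stood at -0.60 ± 0.18, 0.31 ± 0.02, -0.35 ± 0.15 and 0.27 ± 0.04. The other kept probe sets of *C1qb* stood at 0.18 and 0.17, and the second of these had 0.40 in array 1 and -0.06 in array 2. The median of the 13 measured male-biased kidney genes was -0.88 in array 1 and 0.029 in array 2, with summed signals of 107460 and 196696 in cardio-renal arrays 1 and 2 and 189394 in the uninephrectomy array. *Slco1a1* had signals of 22.5 and 6064 in the cardio-renal arrays and 6161 in the uninephrectomy array, and *Cyp7b1* had 2003 and 10266 in the cardio-renal arrays and 13094 in the uninephrectomy array. *Akr1c18* was far lower in array 2 as well, with 20.8 and 491.9 in the cardio-renal arrays and 1246 in the uninephrectomy array. *Odc1* stood at -0.39 in array 1 and -0.06 in array 2 in its brightest probe set. Its other probe sets stood at -0.97 and -0.20, and at -0.74 and -0.06. The part of these transcripts in the differences of the heat shock genes was not tested.

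Over the 2 array differences, the genes kept whose pattern lay nearest to that of *Hspa1b* were *Tent5a*, *Bcl10*, *P2rx1*, *Hspb1* and *Bdnf*, at Euclidean distances of 0.033, 0.060, 0.063, 0.064 and 0.078 on the log2 scale. Likeness over 3 arrays is loose, 1 of these 5 is itself a member, and each gene was placed by its brightest probe set only. The 3 other kept probe sets of *Bcl10* stood at -0.10, -0.05 and 0.02, and the other one of *Bdnf* at -0.26.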

How the data were processed

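Per the labels' protocols, 250 ng of kidney RNA was labelled with a kit that reads the 3' end of transcripts. The authors deposited intensities: linear MAS5 signals, 1 per probe set, per the submitters' processing notes, without the version of MAS5. The mean trimmed by 2% at each end was the same on all 3 arrays, and the values were used as scaled. Because MAS5 corrects with mismatch probes, dim probe sets are noisy; no detection calls were used. The number of arrays limits the precision.

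Probe sets were named from the platform annotation (34958 with 1 symbol, 932 with several, 9211 unnamed here). The offset of 28.8 is the 25th percentile of signal, taken as the median of the 3 arrays. Probe sets and genes were kept at a mean log2 value of 7.02, the median of all probe sets, and a gene took the values of its brightest probe set by mean. limma 3.58.1 in R 4.3.3 (lmFit, eBayes with trend, two-sided, Benjamini-Hochberg at 0.05) was run over all 3 arrays with 1 residual degree of freedom, and tested on simulated data. Motifs were searched as exact letters in RefSeq promoters. The members, classes and gene lists were chosen with earlier results of these data known. Named genes were all members, up to 3 per chaperone list and up to 4 per marker list ranked by the smaller of the 2 array differences of like sign, all heat shock factors, and the 5 genes nearest to *Hspa1b*. Alternatives were the offset, the normalization, the filter, the choice of probe sets, limma's variance model and leaving out either cardio-renal array.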

Additional observations from a re-analysis of the deposited data

How the results depend on the processing

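All of these comparisons rest on 1 uninephrectomy array, so its own deviation enters every difference. limma called 0 genes under each alternative run (128 to 671 with an unadjusted p under 0.05), and no fit was possible with a cardio-renal array left out. Of 88 recomputed differences of single members, 84 kept their sign. The exceptions were *Hsp90aa1* as the mean of its probe sets (0.010), *Hspa8* after quantile normalization (0.0095) and, without cardio-renal array 1, *Hspa8* (0.071) and *Hspd1* (0.024). Many of the 88 could not change sign. Both changes of the filter left every member at its reported value, and the choice of probe sets leaves genes with 1 probe set as they are. Leaving out an array cannot turn a gene that was lower in both. Leaving out either cardio-renal array, the median of the inducible genes ranged from -0.52 to -0.39, that of the constitutive genes from -0.27 to 0.048, their difference from -0.43 to -0.26, the count of member probe sets lower from 16 to 18, that of genes at least 2-fold lower from 22 to 69, the median of genes with a triple repeat from 0.011 to 0.045 and that of the other chaperone lists from -0.0054 to 0.010. Both counts then ask for a lower value in the 1 remaining array only. The main counts, 16 probe sets and 6 genes, ask for it in both arrays, so they are not alike.

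Without shared-design probe sets, 7 of 8 member probe sets were lower in both arrays, the constitutive median was -0.51 and the inducible minus constitutive difference 0.066, because *Hspa8* was then represented by 1431182_at. *Hspb1* and *Hsph1* dropped out in this setting, as all their probe sets are of shared design, and the inducible median of the remaining genes was -0.45. The count of 6 genes at least 2-fold lower became 3 with an offset of 100, 3 with the upper quartile filter, 3 without shared-design probe sets and 18 with no filter. For the mean of the 2 array differences, the median of genes with a triple repeat was -0.015 in the main setting and -0.058 with median centring. That of the other chaperone lists was 0.0097 in the main setting, -0.033 with median centring and -0.0085 with the mean of probe sets. The inducible median stayed between -0.49 and -0.44 under the alternatives that kept both cardio-renal arrays. No paired analysis was possible, because there was 1 uninephrectomy array and the sample labels name no pairs. The replicate numbers only follow the order of the samples.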
